A study of Mus musculus with 16 samples.

Results

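Trem2, Itgax, Gpnmb, Cd9, Spp1, Ctsk, Slc37a2, Cd5l, Lgals3 and Atp6v0d2 are genes associated with the lipid-laden macrophages of obese fat, and they were followed here through white adipose tissue of mice that differed in diet and in Sirt1 genotype. Members were taken by symbol from the deposited expression table, using every probe set that the array's probe table assigns to that symbol alone. Of the 10 genes listed, 9 had such a probe set, with 12 of the table's 45037 probe sets between them, and all 9 passed the filter on low values that left 12078 of 18193 genes for testing. Spp1, which encodes the secreted protein osteopontin, is not analysed here.

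The tissue came from C57BL6/J mice on 16 Affymetrix arrays in 4 groups of 4, the wild type and the knockout each on low-fat and high-fat food. The wild type lacked Cre, whereas the knockout had Cre under the FABP4 promoter, a design the labels describe as deletion of Sirt1 in adipocytes. No group with Cre and intact Sirt1 is among the samples, so effects of the Cre transgene and of the loss of Sirt1 cannot be told apart. Mice entered the low-fat or high-fat diet at 4 weeks of age and stayed on it for 8 weeks, and tissue was collected at 12 weeks. The sources used here do not name the depot. The labels do not state that the 4 replicates of a group were separate mice, and the p-values reflect the variation among these arrays, which may be technical.

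Macrophages accumulate in fat during obesity and gather around dying adipocytes, whose lipid they take up and digest in lysosomes. Macrophages in this state are recognised by Trem2, a lipid-sensing surface receptor that signals through the adaptor encoded by Tyrobp, and by a set of genes for surface proteins, lysosomal enzymes and lipid metabolism. Fabp4 is known to be active in macrophages as well as adipocytes, so a Cre under its promoter is not strictly confined to fat cells. In bulk tissue a rise in such genes can come from more cells of the type or from more transcript per cell, and these arrays cannot tell the 2 apart.

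The promoters of the members were set side by side because their transcripts rose together. Promoter windows of 300 bases, from 250 before to 50 after the transcription start, came from RefSeq on GRCm38.p6 and were found for 8 of the 9 measured members, with no entry for Atp6v0d2. Both strands were searched for GAGGAA, the core recognised by PU.1 (the macrophage factor encoded by Spi1), for TGANTCA, the AP-1 site, and for TCACGTG, a site of the MiT/TFE factors that drive lysosomal genes. The AP-1 letters were present in the windows of Trem2, Itgax, Gpnmb and Slc37a2, which is 4 of 8, against 7.81% of all 32851 windows of this length. PU.1 letters stood in 4 of 8 windows (Trem2, Ctsk, Slc37a2 and Cd5l), against 28.28% of all windows, and TCACGTG in 0 of 8, against 3.77%. Such matches describe the letters and do not show that a factor binds. The 4 windows that hold an AP-1 match are printed, 5′ to 3′ along the gene, with AP-1 and PU.1 matches in capitals (PU.1 on the opposite strand reads TTCCTC). Trem2 lies at chr17:48346151-48346450 on the plus strand, Itgax at chr7:128129300-128129599 on the plus strand, Gpnmb at chr6:49036268-49036567 on the plus strand and Slc37a2 at chr9:37255689-37255988 on the minus strand.
Trem2: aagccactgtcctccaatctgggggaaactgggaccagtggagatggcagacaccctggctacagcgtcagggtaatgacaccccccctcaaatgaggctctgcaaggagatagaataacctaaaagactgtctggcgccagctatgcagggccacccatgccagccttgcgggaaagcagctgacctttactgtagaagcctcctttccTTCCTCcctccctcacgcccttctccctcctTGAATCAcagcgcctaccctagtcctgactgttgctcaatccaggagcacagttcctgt
Itgax: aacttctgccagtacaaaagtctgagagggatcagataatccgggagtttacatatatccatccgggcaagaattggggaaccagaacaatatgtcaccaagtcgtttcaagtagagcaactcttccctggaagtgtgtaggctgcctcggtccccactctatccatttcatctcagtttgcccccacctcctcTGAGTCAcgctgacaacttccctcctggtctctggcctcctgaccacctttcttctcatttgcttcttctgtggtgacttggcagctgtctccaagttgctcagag
Gpnmb: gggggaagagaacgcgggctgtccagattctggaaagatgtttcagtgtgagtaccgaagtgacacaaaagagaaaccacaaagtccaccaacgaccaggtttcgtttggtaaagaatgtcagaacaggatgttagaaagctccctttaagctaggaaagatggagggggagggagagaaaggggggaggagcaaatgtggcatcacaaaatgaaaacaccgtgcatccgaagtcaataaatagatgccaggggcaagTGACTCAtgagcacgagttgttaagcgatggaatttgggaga
Slc37a2: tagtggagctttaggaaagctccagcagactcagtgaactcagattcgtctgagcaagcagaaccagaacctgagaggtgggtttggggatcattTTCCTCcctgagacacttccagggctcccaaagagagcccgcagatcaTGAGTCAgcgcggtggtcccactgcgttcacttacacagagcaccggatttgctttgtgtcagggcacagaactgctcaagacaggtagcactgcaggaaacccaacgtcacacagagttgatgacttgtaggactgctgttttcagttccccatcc
In Gpnmb the AP-1 match lies in the 50 bases after the start, whereas in Trem2, Itgax and Slc37a2 it lies before the start, by 9, 56 and 107 bases.

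Expression is given as log2 values, on which a difference of 1 is a doubling of signal. Array medians lay between 4.34 and 4.46, and correlations between arrays of a group between 0.987 and 0.996. No genotype difference was called for the Sirt1 probe set: knockout minus wild type was -0.19 on low fat (SE 0.18, adjusted p = 0.498) and -0.22 on high fat (adjusted p = 0.448), and where the probe set lies relative to the deleted exons is not stated. Knockout therefore means the arrays labelled so. The adipocyte gene Adipoq lay between 13.2 and 13.7 on all 16 arrays. The muscle gene Tnnt3 stood at 8 or more on 5 arrays. On low fat these were replicates 3 and 4 of the wild type and replicate 2 of the knockout; on high fat they were replicate 3 of the wild type and replicate 4 of the knockout. They are called muscle-bearing here, and calls on the members that are lost without these arrays are given with both values. Wild-type high-fat replicate 4 held the highest value of 7 of 8 epithelial genes, for example Upk2 at 10.64 against at most 3.81 elsewhere.

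Among the surface proteins, Trem2 stayed low on both low-fat groups and was highest in knockout mice on high fat. Trem2 read 4.74, 5.03, 4.71 and 4.91 in the wild type on low fat, 5.66, 5.84, 5.23 and 5.31 in the knockout on low fat, 6.12, 8.08, 5.86 and 7.89 in the wild type on high fat, and 10.39, 10.16, 10.40 and 9.86 in the knockout on high fat. The knockout high-fat arrays stood clear of every other array, and the wild-type high-fat arrays fell into a lower and a higher pair. With high fat, Trem2 rose by 2.14 in the wild type (SE 0.39, 4.40-fold, adjusted p = 0.000536) and by 4.69 in the knockout (25.9-fold, adjusted p = 1.06e-06). Its 3.22 higher level in the knockout on high fat (9.29-fold, adjusted p = 0.000125) was the seventh largest rise of the 12078 genes in that comparison. On low fat the genotype difference was 0.66 (95% interval -0.16 to 1.48, adjusted p = 0.25), although the arrays of the 2 groups did not overlap. It was called in 1 of 28 alternative settings (lowest adjusted p in limma 0.0329). The spread used was shared by all 4 groups, with an SD of 1.16 in the wild type on high fat against 0.15 and 0.29 on low fat. The Trem2 values come from a probe set whose suffix marks probes shared by more than 1 transcript. The other Trem2 probe set read between 1.67 and 2.38 on every array, below the filter, and averaging the probe sets lowered the differences to 1.09 and 2.41 for diet.

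Itgax, which encodes the integrin CD11c, differed from Trem2 in that it was already high in the knockout on low fat. It read 5.25, 3.69, 3.73 and 3.45 in the wild type on low fat, 7.77, 7.10, 7.43 and 7.14 in the knockout on low fat, 7.02, 8.99, 8.14 and 8.70 in the wild type on high fat, and 10.48, 9.92, 10.11 and 9.88 in the knockout on high fat. The lowest knockout low-fat array exceeded the highest wild-type low-fat array, while knockout low-fat and wild-type high-fat arrays overlapped. Itgax was 3.33 higher in the knockout on low fat (SE 0.40, 10.04-fold, adjusted p = 4.61e-05) and 1.88 higher on high fat (3.69-fold, adjusted p = 0.00478). Diet raised it by 4.18 in the wild type (18.2-fold, adjusted p = 2.45e-06) and by 2.74 in the knockout (6.67-fold, adjusted p = 9.65e-05). Because wild-type low-fat values lie near the bottom of the scale, values below 4 were also set to 4, which gave 3.05 for the knockout on low fat and 3.90 for diet in the wild type.

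Cd9, a tetraspanin of the cell membrane found on many cell types, rose with diet, and no genotype difference was called for it. It read 8.60, 9.76, 7.39 and 9.87 in the wild type on low fat, 8.71, 9.56, 9.70 and 8.86 in the knockout on low fat, 9.504, 11.30, 10.43 and 11.43 in the wild type on high fat, and 9.69, 10.996, 10.83 and 11.14 in the knockout on high fat. The 4 groups overlapped in part, with a spread of 2.48 within the wild type on low fat. The rises with diet were 1.76 in the wild type (SE 0.52, adjusted p = 0.0157) and 1.45 in the knockout (adjusted p = 0.0473). Neither was secure: without low-fat replicate 3 or high-fat replicate 2 or 4 of the wild type, the wild-type value was 1.26, 1.55 or 1.51 (adjusted p = 0.052, 0.0508 and 0.0506), and without the arrays holding muscle transcripts it was 1.56 (adjusted p = 0.0841). The call in the knockout was lost in 12 of 28 alternative settings. Among them were omission of wild-type low-fat replicate 1, any of the 4 knockout low-fat replicates, wild-type high-fat replicate 3, or knockout high-fat replicates 2, 3 or 4, with values from 1.29 to 1.62 and adjusted p up to 0.118. Knockout minus wild type was 0.30 on low fat (95% interval -0.81 to 1.41) and -0.00425 on high fat (-1.12 to 1.11).

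Lgals3 and Cd5l had the smallest rises with diet in the wild type among the 9 members. Lgals3 encodes galectin-3, a sugar-binding protein abundant in macrophages, and it read 11.37, 11.02, 11.53 and 11.60 in the wild type on low fat, 11.52, 11.62, 11.38 and 11.76 in the knockout on low fat, 11.52, 12.66, 12.14 and 12.71 in the wild type on high fat, and 12.85, 12.86, 12.83 and 12.79 in the knockout on high fat. It rose by 0.88 with diet in the wild type (SE 0.21, adjusted p = 0.00407) and by 1.26 in the knockout (adjusted p = 0.000327). The 4 knockout high-fat arrays lay within 0.064 of each other and above all wild-type high-fat arrays, but the difference of 0.57 missed the threshold (adjusted p = 0.0773). Without wild-type high-fat replicate 2 or 4 it was 0.71 or 0.72 (adjusted p = 0.0418 and 0.0342).

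Cd5l encodes a secreted scavenger protein of tissue macrophages that adipocytes can take up. Its values were 4.00, 4.05, 3.62 and 3.83 in the wild type on low fat, 5.09, 4.71, 5.43 and 4.63 in the knockout on low fat, 5.05, 4.80, 4.74 and 5.36 in the wild type on high fat, and 6.82, 6.01, 6.76 and 6.20 in the knockout on high fat. The middle groups coincided, with means 0.03 apart (95% interval -0.42 to 0.48), and the knockout on high fat stood above all others. Diet and genotype each raised Cd5l in both settings, by 1.11 (diet, wild type; adjusted p = 0.000814), 1.48 (diet, knockout; adjusted p = 8.74e-05), 1.09 (genotype, low fat; adjusted p = 0.00243) and 1.46 (genotype, high fat; adjusted p = 0.00047). With values floored at 4 the wild-type diet and low-fat genotype rises were 0.98 and 0.95, and without the muscle-bearing arrays the low-fat genotype rise was 1.02 (adjusted p = 0.0549).

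**Figure D1:**
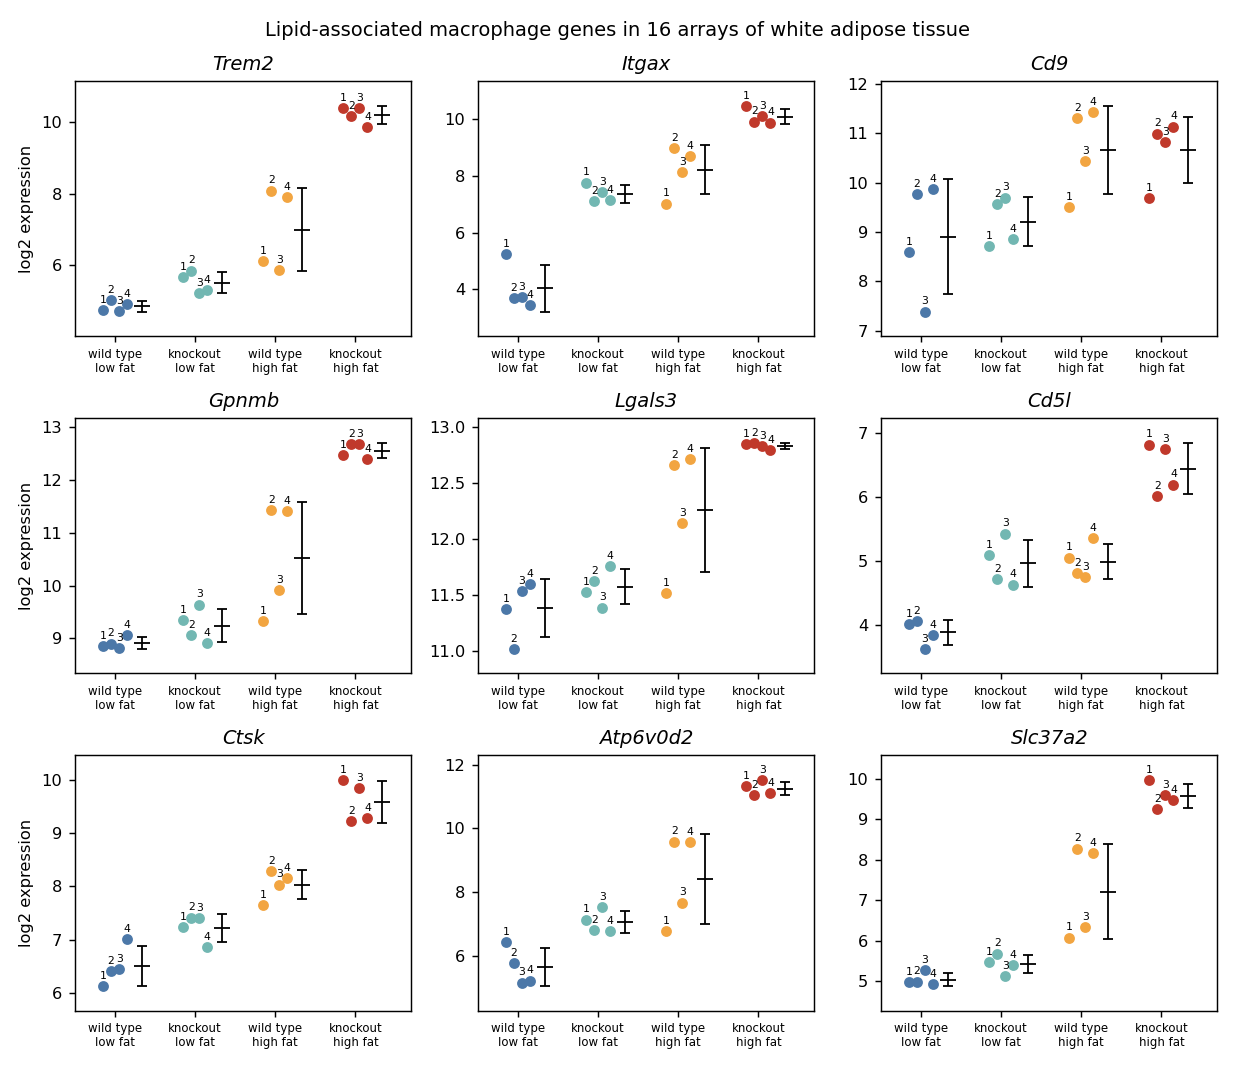
Log2 expression (y axis) of the 9 measured genes on each array, by group (x axis); points carry the replicate number and the bars are mean ± SD of 4 arrays. The knockout high-fat arrays stand above every other array for Trem2, Itgax, Gpnmb, Lgals3, Cd5l, Ctsk, Atp6v0d2 and Slc37a2, whereas for Cd9 both high-fat groups overlap.

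The other members act in lysosomes, matrix breakdown and sugar transport. Gpnmb, a lysosomal and surface glycoprotein induced in lipid-loaded macrophages, read 8.86, 8.90, 8.82 and 9.07 in the wild type on low fat, 9.35, 9.06, 9.64 and 8.91 in the knockout on low fat, 9.33, 11.43, 9.92 and 11.42 in the wild type on high fat, and 12.47, 12.68, 12.69 and 12.41 in the knockout on high fat. The knockout arrays on high fat were the highest, the low-fat genotypes overlapped, and the wild-type high-fat arrays again formed a lower and a higher pair. Gpnmb rose by 1.61 with diet in the wild type (SE 0.36, adjusted p = 0.0024) and by 3.32 in the knockout (9.997-fold, adjusted p = 8.47e-06), and was 2.04 higher in the knockout on high fat (4.11-fold, adjusted p = 0.00144). On low fat the genotypes differed by 0.33 (95% interval -0.42 to 1.09). A second Gpnmb probe set gave 0.98 for diet in the wild type (adjusted p = 0.12), 4.49 for diet in the knockout and 3.32 for genotype on high fat.

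Ctsk encodes cathepsin K, a protease that degrades collagen and is best known from osteoclasts. It read 6.13, 6.40, 6.45 and 7.01 in the wild type on low fat, 7.23, 7.41, 7.41 and 6.85 in the knockout on low fat, 7.65, 8.28, 8.03 and 8.16 in the wild type on high fat, and 9.997, 9.23, 9.85 and 9.28 in the knockout on high fat. Ctsk was the member with a difference at every step of its group order, by 0.73 (adjusted p = 0.0281), 0.81 (adjusted p = 0.0459) and 1.56 (adjusted p = 0.000321). The first step was the weakest: wild-type low-fat replicate 4, which held muscle transcripts, overlapped the knockout, and the call was lost without wild-type low-fat replicate 1 or 3 or knockout low-fat replicate 1, 2 or 3 (0.60 to 0.72, adjusted p up to 0.0951). Leaving out all muscle-bearing arrays gave 0.90 (adjusted p = 0.069). Diet raised Ctsk by 1.53 in the wild type (SE 0.22, adjusted p = 6.99e-05) and by 2.36 in the knockout (adjusted p = 2.41e-06).

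Atp6v0d2 encodes an isoform of a proton-pump subunit that is enriched in osteoclasts and macrophages and helps acidify lysosomes. It read 6.43, 5.77, 5.15 and 5.22 in the wild type on low fat, 7.13, 6.80, 7.52 and 6.78 in the knockout on low fat, 6.77, 9.58, 7.67 and 9.57 in the wild type on high fat, and 11.32, 11.06, 11.52 and 11.11 in the knockout on high fat. The knockout on high fat stood above all other arrays, and the wild-type high-fat arrays ranged from the level of the knockout on low fat to well above it. Atp6v0d2 rose by 2.76 with diet in the wild type (SE 0.49, 6.76-fold, adjusted p = 0.000497), by 4.196 in the knockout (18.3-fold, adjusted p = 1.73e-05) and by 2.86 with genotype on high fat (7.24-fold, adjusted p = 0.0014). The low-fat genotype difference of 1.42 missed the threshold (adjusted p = 0.056) although the arrays of the 2 groups did not overlap. It passed when low-fat replicate 1 of the wild type was left out (1.68, adjusted p = 0.0473) and without wild-type high-fat replicate 1, 2 or 4 (1.42, adjusted p = 0.0169, 0.0383 and 0.0371). A second Atp6v0d2 probe set gave 3.03, 4.66, 1.37 and 3.00 for the same 4 comparisons.

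Slc37a2, a sugar-phosphate exchanger of macrophages, followed Trem2 closely. Its values were 4.97, 4.99, 5.27 and 4.93 in the wild type on low fat, 5.48, 5.69, 5.13 and 5.40 in the knockout on low fat, 6.08, 8.28, 6.34 and 8.17 in the wild type on high fat, and 9.97, 9.25, 9.60 and 9.49 in the knockout on high fat. Low-fat genotypes overlapped (difference 0.38, 95% interval -0.44 to 1.21), and the knockout on high fat stood above all other arrays. Slc37a2 rose by 2.17 with diet in the wild type (SE 0.39, 4.52-fold, adjusted p = 0.000495), by 4.15 in the knockout (17.8-fold, adjusted p = 2.84e-06) and by 2.36 with genotype on high fat (5.13-fold, adjusted p = 0.00103).

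The first comparison asked what high-fat feeding did in wild-type fat, and every measured member was higher. All 9 were called higher, against 20.5% of the tested genes called higher and 15.2% called lower. Their differences ran from 0.88 (Lgals3) to 4.18 (Itgax), the eighth largest rise among the tested genes, with a median of 1.76 against 0.04 over all tested genes. Arrays of the diets did not overlap for 7 members, against 17.7% of tested genes, the exceptions being Cd9 and Lgals3. Without the 5 arrays with muscle transcripts 8 of the 9 were called, Cd9 being the exception.

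High-fat feeding in the knockout raised the same 9 members, with larger estimates for all but Itgax and Cd9; the differences between the diet effects were tested separately. All 9 were called higher, where 15.6% of tested genes were called higher and 13.5% lower. The median was 2.74 against -0.02 over all genes, and the range ran from 1.26 (Lgals3) to 4.69 (Trem2). Groups did not overlap for 8 members, all but Cd9, against 17.6% of tested genes. Cd9 was also the exception when the muscle-bearing arrays were left out (1.41, adjusted p = 0.0888; 8 of 9 called).

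On low fat the knockout was higher for Itgax, Cd5l and Ctsk, and the others were not called. These 3 of 9 compare with 11.7% of tested genes called higher and 7.24% called lower. The median was 0.66 against 0.04 over all genes, and all 9 differences were above 0. Groups did not overlap for 4 members (Trem2, Itgax, Cd5l and Atp6v0d2), against 11.8% of genes. After leaving out the 5 muscle-bearing arrays, which left 2 wild-type and 3 knockout low-fat arrays, Itgax alone was called (2.97, adjusted p = 0.00892). The count was 2 without wild-type low-fat replicate 3 or knockout low-fat replicate 1, 2 or 3.

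On high fat the knockout was higher for Trem2, Itgax, Gpnmb, Ctsk, Slc37a2, Cd5l and Atp6v0d2, but not for Cd9 or Lgals3. The 7 of 9 called compare with 8.58% of tested genes called higher and 6.47% called lower. The median difference was 1.88 against 0.0026 over all genes, and Atp6v0d2 was the fifteenth and Slc37a2 the thirty-eighth largest rise. Groups did not overlap for 8 members, against 14.6% of genes. The same 7 were called without the muscle-bearing arrays, with Trem2 at 2.95 (adjusted p = 0.00452) and Gpnmb at 1.89 (adjusted p = 0.0318).

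**Figure D2:**
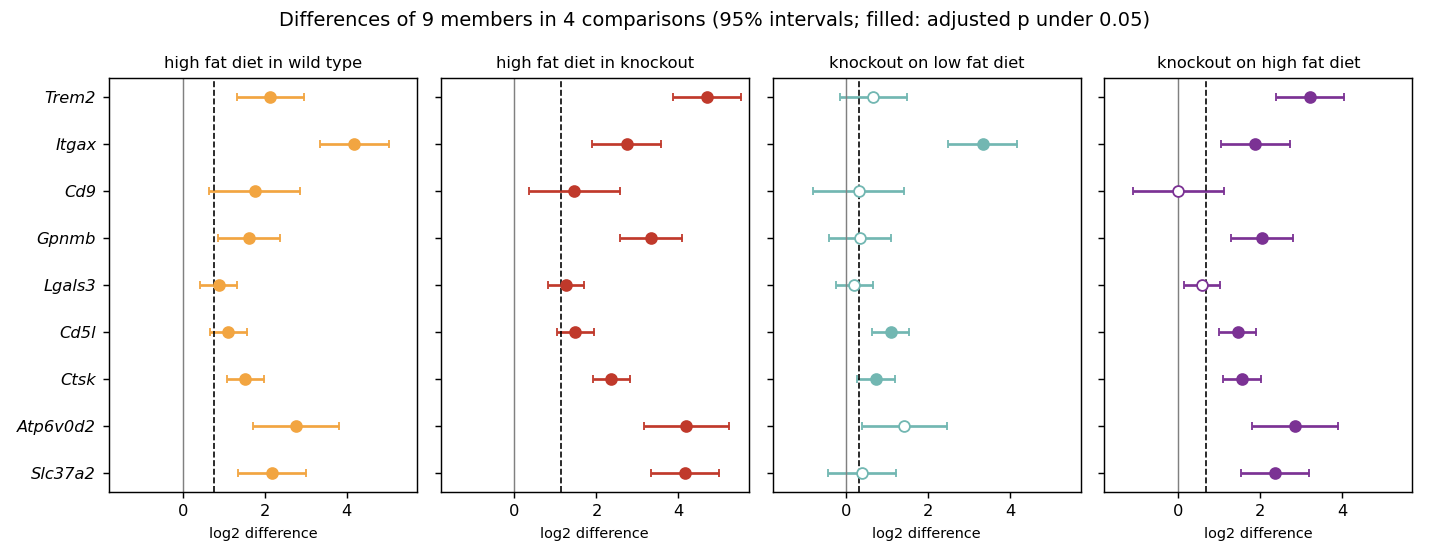
Log2 difference with 95% interval (x axis) of each measured gene (y axis) in 4 comparisons; filled points have an adjusted p under 0.05 and the dashed line is the difference of the mean of 10 pan-macrophage genes. Itgax is far to the right on low fat, where most other genes are open points near the dashed line, and Trem2 leads on high fat at 3.22.

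Because the diet comparison in one genotype and the genotype comparison on one diet share arrays, their values are given side by side and not correlated. Read as an order of group means, Trem2 and Slc37a2 had no called difference between the low-fat genotypes, although the Trem2 arrays of these groups did not overlap. From the knockout on low fat both stepped up to the wild type on high fat (1.48, adjusted p = 0.0422, and 1.79, adjusted p = 0.0187). At this step 3 of the 9 members were called, Ctsk being the third, against 2.24% of genes. Trem2 and Slc37a2 stepped up again to the knockout on high fat. Itgax and Cd5l instead stepped up first, between the low-fat genotypes, and did not separate the knockout on low fat from the wild type on high fat (0.86, adjusted p = 0.247, and 0.03, adjusted p = 0.963). For Gpnmb and Atp6v0d2 the last step was the one that passed the threshold, and for Lgals3 no step passed it. Between the extremes, knockout on high fat against wild type on low fat, all 9 were higher, against 25.5% of tested genes, by 1.45 (Lgals3) to 6.07 (Itgax, 67.0-fold).

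Whether diet acted more strongly in the knockout was tested as the difference of the diet effects on the log2 scale. Trem2 (2.55, SE 0.55, adjusted p = 0.0071), Slc37a2 (1.98, SE 0.55, adjusted p = 0.0275) and Gpnmb (1.71, SE 0.50, adjusted p = 0.0355) rose more with diet in the knockout. These 3 of 9 compare with 5.12% of genes called in this direction and 7.87% in the other. Itgax had the opposite sign (-1.44, adjusted p = 0.0994) and passed when replicate 1 of the wild type was left out on low fat (-1.85, adjusted p = 0.0222) or on high fat (-1.84, adjusted p = 0.0237). Atp6v0d2 (1.44, adjusted p = 0.184), Ctsk (0.83, adjusted p = 0.0836), Lgals3 (0.38), Cd5l (0.37) and Cd9 (-0.31) were not called.

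The interaction calls depended on the arrays included. Without the 5 muscle-bearing arrays none of the 9 was called by limma (2 at an unadjusted p under 0.05), with Trem2 at 2.44 (adjusted p = 0.0519), Slc37a2 at 1.74 (adjusted p = 0.2) and Gpnmb at 1.47 (adjusted p = 0.272). Trem2 was called in each of the 16 runs that left out a single array. Slc37a2 was lost without low-fat replicate 3 of either genotype, high-fat replicate 3 of the wild type or high-fat replicate 1 of the knockout (1.68 to 1.90, adjusted p up to 0.0596). Gpnmb was lost without wild-type low-fat replicate 1, 3 or 4, knockout low-fat replicate 1, 2 or 4, wild-type high-fat replicate 3 or any knockout high-fat replicate (1.51 to 1.76, adjusted p up to 0.0776). Its second probe set gave 3.502 (adjusted p = 0.00411). The number of members called fell to 1 without replicate 3 of the wild type on either diet or replicate 1 of the knockout on high fat. Without the epithelium-bearing wild-type high-fat replicate 4, all 3 were called, with Trem2 at 2.86 (adjusted p = 0.00315).

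With diet, and with genotype on high fat, most measured members rose more than a general macrophage index. This index, the mean of Adgre1, Csf1r, Cd68, Fcgr1, Itgam, Mertk, Aif1, Lyz2, Cybb and Laptm5, was 9.10 ± 0.13 in the wild type on low fat, 9.41 ± 0.20 in the knockout on low fat, 9.85 ± 0.30 in the wild type on high fat and 10.5 ± 0.06 in the knockout on high fat (SD, n = 4 each). It rose by 0.76 with diet in the wild type, by 1.13 in the knockout, and by 0.31 and 0.68 with genotype on low and high fat. Its genes did not move alike: with diet in the knockout they differed by -0.03 (Mertk) to 2.98 (Fcgr1). With genotype on high fat they ran from 0.00 (Csf1r) to 1.97 (Fcgr1). Fcgr1 thus rose by more than the index too, so an excess over the index is not particular to the members. Subtracting the index from each array and refitting all genes asks how a member moved beyond it.

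Relative to the index, 7 members were higher with diet in the wild type (background 4.36% of genes higher and 68.9% lower), all but Lgals3 (0.12) and Cd5l (0.36). In the knockout 6 were higher with diet (2.31% higher, 89.4% lower), led by Trem2 at 3.57 (SE 0.29, adjusted p = 4.13e-08), Atp6v0d2 at 3.07 and Slc37a2 at 3.03, and the exceptions were Lgals3 (0.13), Cd9 (0.33) and Cd5l (0.36). With genotype on high fat 7 were higher (1.86% higher, 72% lower), Trem2 again leading at 2.53 (adjusted p = 8.09e-06), while Cd9 was -0.69 (adjusted p = 0.145) and Lgals3 -0.11 (adjusted p = 0.6). The large shares of genes called lower follow from subtracting an index that rose.

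On low fat, Itgax (3.01, adjusted p = 1.41e-05) and Cd5l (0.77, adjusted p = 0.0358) exceeded the index in the knockout (3.55% of genes higher, 15.5% lower). The Cd5l call was lost without wild-type low-fat replicate 3 or 4 or knockout low-fat replicate 1 or 3 (0.60 to 0.75, adjusted p up to 0.114) and without the muscle-bearing arrays (0.71, adjusted p = 0.212). The interaction beyond the index was positive for Trem2 (2.19, adjusted p = 0.00128), Slc37a2 (1.61, adjusted p = 0.013) and Gpnmb (1.34, adjusted p = 0.0216), where 0.994% of genes were called higher. It was negative for Itgax (-1.81, adjusted p = 0.0179), where 15.8% of genes were called lower. As 1 of 9 members, this call does not exceed that share. Without subtracting the index it was not called (-1.44, adjusted p = 0.0994), and the index itself rose by 1.13 with diet in the knockout against 0.76 in the wild type. None of these interactions beyond the index was run under the alternative settings.

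The excess over the index in Cd9 with diet in the wild type (1.00, adjusted p = 0.0403) was lost without wild-type low-fat replicate 1 or 3 or wild-type high-fat replicate 2, 3 or 4 (0.49 to 1.03, adjusted p up to 0.216), and also without the muscle-bearing arrays (0.67, adjusted p = 0.179), which left 6 members above the index there. With an index of Adgre1, Csf1r and Mertk alone, Cd5l and Lgals3 also exceeded it with diet, by 0.91 and 0.68 in the wild type and by 1.01 and 0.79 in the knockout.

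**Figure D3:**
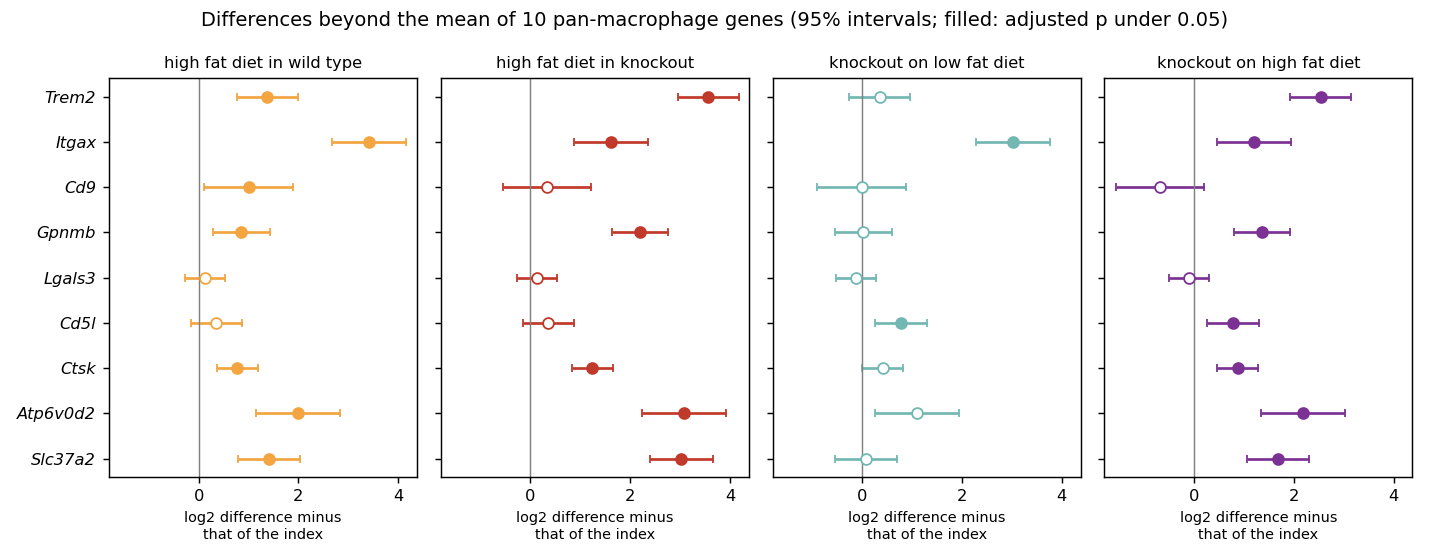
Log2 difference of each measured gene minus that of the 10-gene macrophage index, with 95% interval (x axis), in 4 comparisons; filled points have an adjusted p under 0.05. Trem2, Atp6v0d2 and Slc37a2 lie about 3 or more above the index with diet in the knockout, whereas Lgals3 lies near 0 in all 4 panels.

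Within the wild type on high fat the arrays were split. Replicates 2 and 4 were the highest for 8 of 9 members, Cd5l being the exception, and for 8 of 10 index genes, against 27.5% of all tested genes. Trem2 spanned 2.23 within this group and 0.53 in the knockout on high fat, and Slc37a2 spanned 2.198 and 0.72. The lower pair of Atp6v0d2 values (6.77 and 7.67) lay close to the knockout low-fat range, and the upper pair (9.58 and 9.57) lay at least 1.90 higher. Replicate 4 carried the epithelial transcripts (mean of 8 epithelial genes 8.95). Replicate 2 had the lowest epithelial mean (4.38) and muscle mean (4.64) of its group. The part of these cells in the split was not tested. Without replicate 2, the Trem2 rise with diet in the wild type was 1.77 (adjusted p = 0.00171), and without replicate 4 it was 1.84 (adjusted p = 0.00202). Because the 4 groups share 1 spread per gene, SEs of 2-group comparisons with this wider group can be too small, and those on low fat too large. Fitting only the 2 groups compared, 8, 9, 4 and 7 members were called with diet in the wild type and knockout and with genotype on low and high fat. Of the 12078 tested genes, 1971, 2079, 881 and 1334 were then called higher.

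After group means were removed, members still varied together from array to array. Over the 16 arrays the deviations of 35 of 36 pairs of members correlated above 0, with a median r of 0.47. The highest was Trem2 with Slc37a2 (0.93), followed by Gpnmb with Atp6v0d2 (0.90) and Itgax with Atp6v0d2 (0.84). Cd5l with Lgals3 was lowest, at -0.16. All pairs share the same arrays, including the split within the wild type on high fat. No share for pairs of other tested genes is given, so the count cannot be read as particular to the members. Deviations of Trem2 followed those of the macrophage index (r = 0.80), as did Gpnmb (0.76) and Slc37a2 (0.75), whereas Cd5l did not (-0.02) and Itgax did so weakly (0.28).

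Cd9 was the member whose deviations tracked mesothelial genes most closely (r = 0.67 with the mean of 7 mesothelial markers over 16 arrays). Its lowest array in the wild type on low fat, replicate 3 at 7.39, had the lowest mesothelial mean of that group (8.08), and its lowest in the knockout on high fat, replicate 1 at 9.69, had the lowest of all (6.68). The part of mesothelial cells in the Cd9 values was not tested.

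**Figure D4:**
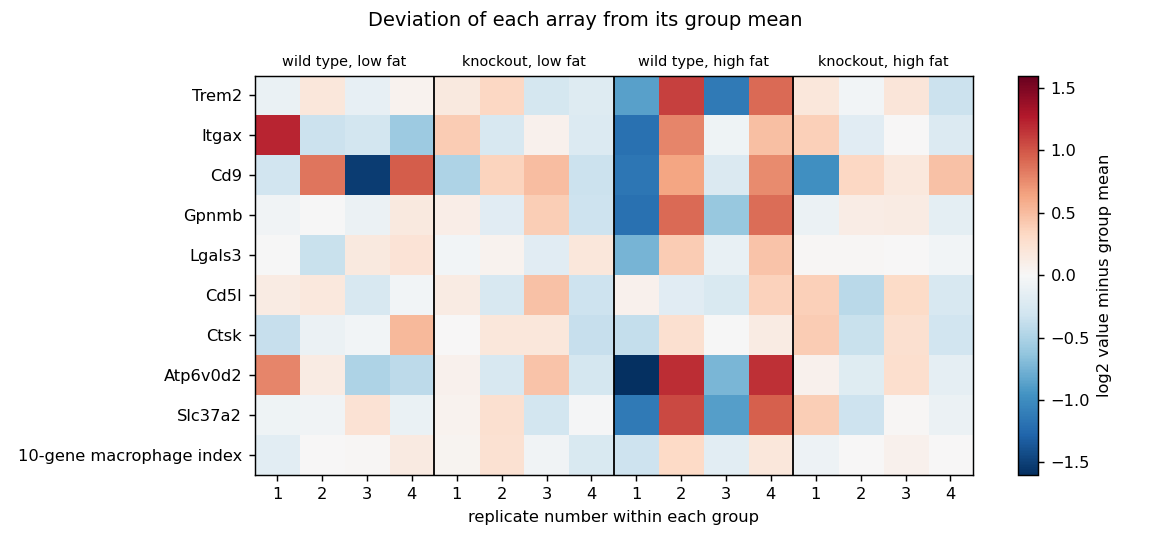
Deviation of each array from its group mean in log2 units (colour) for the 9 measured genes and the macrophage index (rows) on 16 arrays (columns, by group and replicate). In the wild type on high fat, replicates 2 and 4 are red and replicates 1 and 3 blue for most genes, and the other groups are paler apart from Cd9 and Itgax replicate 1 on low fat.

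Most genes of the Trem2 pathway were higher with diet. Of 7 partners and signalling genes with a probe set, 5 were called higher with diet in the wild type, 6 with diet in the knockout, 1 with genotype on low fat and 5 with genotype on high fat. Of all tested genes, 20.5%, 15.6%, 11.7% and 8.58% were called higher in these 4 comparisons, so the count on low fat was near its share. The shares called lower were 15.2%, 13.5%, 7.24% and 6.47%. Counts of the lists that follow are to be read beside these shares. Tyrobp, the adaptor, rose by 1.04 (adjusted p = 0.00035) and 1.21 with diet in the 2 genotypes and was 0.66 higher in the knockout on high fat (adjusted p = 0.0207). Spi1, which encodes PU.1, rose by 1.32 and 2.54, and the kinase gene Syk by 1.16 and 1.76. Plcg2, encoding the phospholipase downstream of Syk, was the gene called on low fat (1.12, adjusted p = 0.00114). Apoe, a lipid carrier that binds Trem2, differed by -0.32 to 0.15 and was not called. Spi1 shared the stronger diet effect in the knockout (1.22, adjusted p = 0.0245). Of the other genes of the Trem family, 5 were below the filter on low values, the highest value being 4.25 for Treml4.

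Integrin and adhesion genes around Itgax and the unmeasured Spp1 were called in part. Of 4 leukocyte integrin and ligand genes, 3 were higher with diet in each genotype, 1 with genotype on low fat and 0 with genotype on high fat (limma, 2 at an unadjusted p under 0.05). Itgb2, which encodes the beta chain that pairs with CD11c, rose by 1.82 and 1.78 with diet and was 0.99 higher in the knockout on low fat (adjusted p = 0.0399). Of 7 osteopontin receptor genes, 5 were higher with diet in the wild type and 3 in the knockout on low fat, 1 was higher and 1 lower with diet in the knockout, and 1 was higher with genotype on high fat. Of all tested genes, 20.5% and 15.6% were higher with diet in the wild type and the knockout. With genotype on low and high fat these shares were 11.7% and 8.58%. Cd44, the hyaluronan receptor that also binds osteopontin, was called in all 4 comparisons (2.23, 1.68, 1.48 and 0.92). Among 5 tetraspanins other than Cd9, Cd37 was called in all 4 (1.62, 1.62, 1.10 and 1.10) and Cd81 in none (-0.17 to 0.17). Of 6 galectin genes and partners, 2 were higher and 1 lower with diet in the wild type. Lgals9 rose by 1.22 there (adjusted p = 0.000533) and differed by -0.03 with diet in the knockout.

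Of 14 proton-pump subunit genes other than Atp6v0d2, 2 were higher with diet in the wild type, fewer than the 20.5% of all tested genes, 8 with diet in the knockout (15.6% of all genes), 0 with genotype on low fat (limma, also 0 at an unadjusted p under 0.05) and 6 with genotype on high fat (8.58% of all genes). Tcirg1, the a3 subunit used by osteoclasts, rose by 0.74 (adjusted p = 0.0139) and 1.82 (adjusted p = 1.83e-05) and had a stronger diet effect in the knockout (1.08, adjusted p = 0.0291). Atp6v0d1, the ubiquitous counterpart of Atp6v0d2, differed by 0.13 and 0.31 with diet and was not called. Of 11 other cathepsin genes 5, 4, 3 and 2 were higher in the 4 comparisons (20.5%, 15.6%, 11.7% and 8.58% of all genes), Ctsa reaching 0.84 and Ctsz 0.69 with diet in the knockout. Among 4 MiT/TFE factors, Tfec was higher in all 4 comparisons (0.83, 1.24, 0.56 and 0.97; with values floored at 4 the third was 0.35, adjusted p = 0.132) and Tfeb in the comparisons that involve the knockout on high fat (0.85, adjusted p = 0.00137, and 0.89, adjusted p = 0.00246), whereas Mitf and Tfe3 were not called. Of 6 osteoclast and fusion genes, 3 were higher with diet in the wild type (20.5% of all genes), and 3 higher and 1 lower with diet in the knockout (15.6% and 13.5% of all genes). Several had group means under 4, so values were also floored at 4. Dcstamp, needed for macrophage fusion, then rose by 2.46 with diet in the knockout (adjusted p = 0.000809) and differed by 1.16 in the wild type (adjusted p = 0.0592, against 2.41 unfloored and called). Ocstamp, called with diet in both genotypes unfloored, then differed by 0.13 in the wild type (adjusted p = 0.479) and 0.18 in the knockout (adjusted p = 0.355). Tnfrsf11a then differed by 0.30 with diet in the wild type (adjusted p = 0.344), so none of the 3 wild-type calls remained. Tnfrsf11a, the receptor RANK, was 1.34 higher in the knockout on high fat with the floor (adjusted p = 0.00143) and 1.79 without it. Mmp9, a matrix protease, fell by 1.94 with diet in the knockout (adjusted p = 2.19e-05).

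Genes listed for lipid handling in macrophages did not move as a block in whole tissue. Their mean ran from 11.34 to 11.40 in the wild type on low fat, where the macrophage index ran from 8.93 to 9.24. Which cells these transcripts come from was not tested, so their values cannot be assigned to macrophages. Of 13 measured, 2 were higher and 3 lower with diet in the wild type, 3 higher with diet in the knockout, 2 lower with genotype on low fat and 4 higher with genotype on high fat. The shares over all tested genes were 20.5% higher and 15.2% lower with diet in the wild type, and 15.6% higher with diet in the knockout. They were 7.24% lower with genotype on low fat and 8.58% higher with genotype on high fat. Lipa, the lysosomal acid lipase, rose by 0.61 and 1.73 with diet. Npc1, which moves cholesterol out of lysosomes, fell by 1.804 with diet in the wild type (adjusted p = 4.1e-06) and differed by 0.39 in the knockout (adjusted p = 0.122), an interaction of 2.19 (adjusted p = 0.000133). Msr1, a scavenger receptor that takes up modified lipoprotein, was not among the 13 but in a list of scavenger receptor cysteine-rich genes. It rose by 2.23 with diet in the knockout (adjusted p = 2.86e-05) and differed by 0.42 in the wild type (adjusted p = 0.264). Of the 3 genes tested in its list, 1 was higher with diet in the wild type and 2 in the knockout. The 1 in the wild type was Marco (0.87), not called there with values floored at 4 (0.26, adjusted p = 0.065). The other Slc37 genes measured, Slc37a3 and Slc37a4, were called in no comparison.

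**Figure D5:**
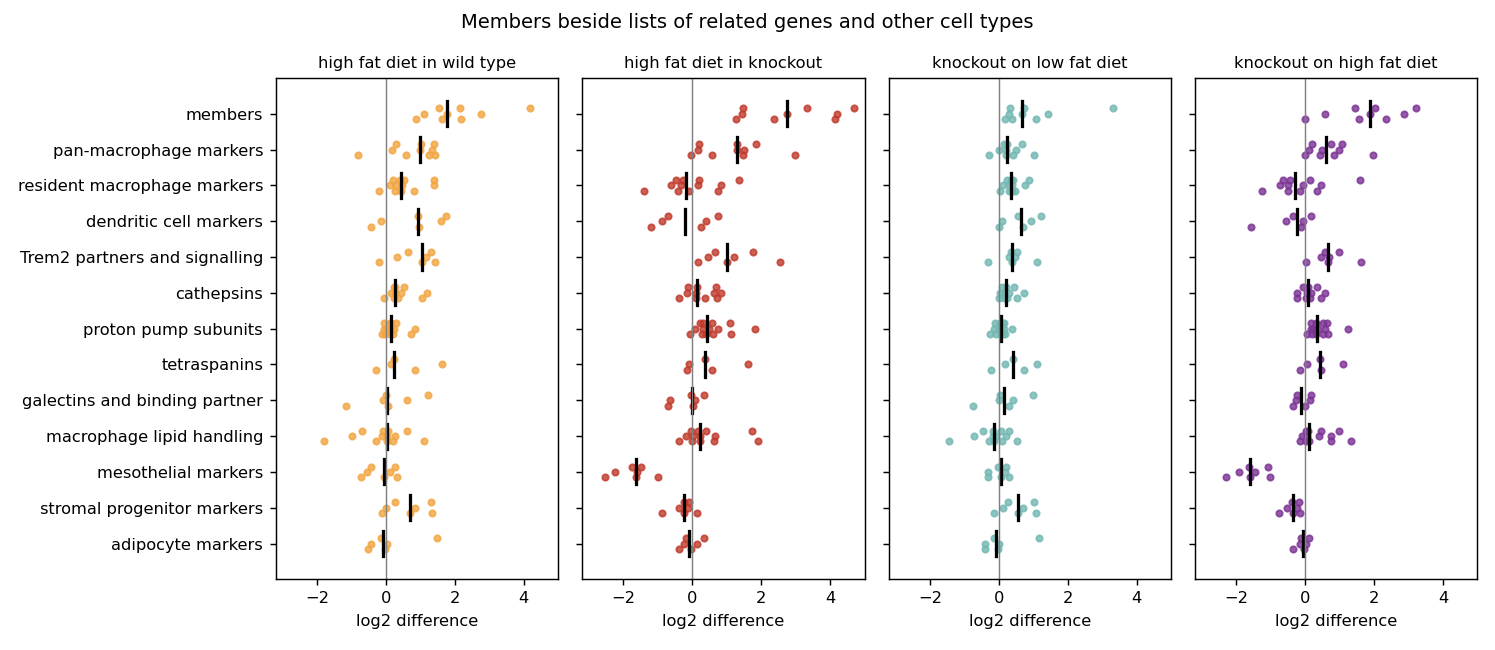
Log2 differences (x axis) of the measured lipid-associated genes (members, top row) and of 12 other gene lists (rows) in 4 comparisons; each point is a gene and the bar is the list's median. The members lie furthest right with diet in the knockout (median 2.74), and mesothelial markers lie left with diet in the knockout (-1.64) and with genotype on high fat (-1.61).

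Markers of macrophages and their relatives moved unevenly beside the members. Of 10 pan-macrophage genes, 7 were higher with diet in the wild type and 7 in the knockout, 1 (Adgre1, 1.01, adjusted p = 0.00379) with genotype on low fat and 5 on high fat. Over all tested genes these shares were 20.5%, 15.6%, 11.7% and 8.58%, and 15.2% and 13.5% were lower with diet in the wild type and the knockout. With diet in the wild type and the knockout, Fcgr1 rose by 1.42 and 2.98, Cd68 by 1.38 and 1.85, and Aif1 by 0.97 and 1.47. Cybb rose by 1.35 and 1.5045. Fcgr1 also had a stronger diet effect in the knockout (1.56, adjusted p = 0.0276). In contrast, Csf1r, the receptor that macrophages need to survive, differed by 0.00 to 0.16 and was not called. Mertk, an efferocytosis receptor, fell by 0.80 with diet in the wild type (adjusted p = 0.000647), the 1 gene of the 10 called lower there. Among 12 resident macrophage genes, 5 rose with diet in the wild type, whereas in the knockout 3 rose and 2 fell. Those that fell were Timd4 (-1.40, adjusted p = 0.00027; -0.97 with values floored at 4) and Retnla (-0.63, adjusted p = 0.00192). Vsig4 rose there by 1.35 (adjusted p = 0.00204). Of 3 monocyte genes, Ccr2, the receptor that recruits monocytes, rose by 1.65 with diet in the wild type (adjusted p = 1.55e-05), differed by 0.16 in the knockout, and had a negative interaction (-1.49, adjusted p = 0.00311). Chil3, a lectin of activated macrophages and monocytes, did the reverse: it rose by 2.77 with diet in the knockout (adjusted p = 8.62e-05), differed by 0.98 in the wild type (adjusted p = 0.0648) and had a positive interaction (1.79, adjusted p = 0.0459). Plac8 was called in no comparison. S100a8, which neutrophils and monocytes make, was higher in all 4 comparisons (2.39 to 3.37), whereas its partner S100a9 was called in none and Ngp and Camp were below the filter. Dendritic cell genes, which matter because these cells also carry CD11c, gave 4 of 6 higher with diet in the wild type and 3 of 6 higher with genotype on low fat, but 3 of 6 lower with diet in the knockout; Flt3, called with genotype on low fat, was not called with values floored at 4 (0.29, adjusted p = 0.238). The mean of the 7 with a probe set ran from 4.57 to 5.13 in the wild type on low fat, 4.94 to 5.55 in the knockout on low fat, 5.36 to 5.70 in the wild type on high fat and 4.95 to 5.32 in the knockout on high fat, with Xcr1 below the filter throughout. Their part in the Itgax values was not tested.

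Other cells of fat also shifted. All 7 mesothelial genes were lower with diet in the knockout and in the knockout on high fat, and 0 were called by limma in the other 2 comparisons (1 at an unadjusted p under 0.05 with diet in the wild type, and 0 with genotype on low fat). Their mean ran from 6.68 to 8.09 in the knockout on high fat and from 8.08 to 9.59 elsewhere. Stromal progenitor genes gave 4 of 7 higher with diet in the wild type and 3 of 7 higher in the knockout on low fat, against 1 and 2 of 7 lower in the comparisons that involve the knockout on high fat. Of 6 adipocyte genes, 1 was higher and 2 lower with diet in the wild type, 1 lower with diet in the knockout, and 1 higher and 1 lower with genotype on low fat. Of all tested genes, 20.5% were higher and 15.2% lower with diet in the wild type, and 13.5% lower with diet in the knockout. With genotype 11.7% were higher and 7.24% lower on low fat, and 6.47% lower on high fat. Lep, encoding leptin, rose by 1.49 with diet in the wild type and was 1.17 higher in the knockout on low fat. Pnpla2, encoding the lipase ATGL, fell by 0.52 (adjusted p = 0.000406) and was lower by genotype (-0.39, adjusted p = 0.00673) in the same comparisons, and Lipe, encoding hormone-sensitive lipase, fell by 0.44 with diet in the wild type (adjusted p = 0.0458). Of the 7 skeletal muscle genes 0 were called by limma in each of the 4 comparisons (0 at an unadjusted p under 0.05), although their mean ran from 4.58 to 9.53 over the arrays. What these cells contributed to the members' values was not tested.

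Genes whose pattern over the 16 arrays was most like that of Trem2 included both macrophage and cell-cycle genes. By Pearson's r, the nearest non-members were Fcgr1 (0.990), Brca1 (0.988), Tlr13 (0.986), Spi1 (0.985), Milr1, Tk1, Pclaf and Zranb3 (0.982). The nearest to the mean of the standardised members were Il1rn (0.989), F7 (0.988), Cd300c2 (0.987), Lat2, Cd300lb, Gas2l3, Uhrf1 and Cd300a (0.981). Il1rn, the interleukin-1 receptor antagonist, rose by 3.90 and 4.63 with diet, and Brca1, a DNA repair gene, by 1.70 and 3.74 (0.64 and 3.13 with values floored at 4). These values describe likeness over arrays that fall into 4 groups, so they include the shared order of the group means.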

How the data were processed

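White adipose tissue RNA (5 ug per sample, Trizol and columns) was measured on Affymetrix mouse arrays. The submitters' processing notes name GCRMA 2.20.0 and R 2.11.1, and the authors deposited log2 values per probe set; no source used here states a filter or batch step. For each gene the brightest of its single-symbol probe sets was used, and the gene was tested if its log2 value was 4 or more in at least 4 arrays. All 16 arrays entered a linear model of the 4 group means in limma 3.58.1, R 4.3.3 (12 residual and 3.84 prior degrees of freedom, two-sided moderated tests). Benjamini-Hochberg adjustment covered all tested genes, with a threshold of 0.05. The script was tested on simulated data. The number of arrays limits the precision.

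Members, lists and tests were chosen with earlier results of these data known. Named from each list were up to 4 tested genes with the smallest moderated F p, together with the members, check genes and the 8 genes most like Trem2 and most like the members' mean; Mertk, Apoe, Cd81, Atp6v0d1, Xcr1, Ngp, Camp, Treml4 and Upk2 were named after their values were seen. The labels do not say whether replicate numbers pair the arrays, and the main model left pairing out. Over 24 same-numbered pairs the correlation of deviations from group means ran from -0.321 to 0.199, with 5 over 0.1. Such low values cannot exclude a pairing. Alternatives changed the filter, floor, probe-set rule, normalization, prior, array weights, replicate block and arrays included; flooring other named genes at 4 was chosen after seeing the data.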

Additional observations from a re-analysis of the deposited data

Results flagged for a closer look

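Itgax in wild-type low-fat replicate 1 read 5.25, where the other 3 arrays of its group lay between 3.45 and 3.73; its gap to the nearest was 0.841 of the group's range, above Dixon's 95% critical value for 4 arrays. It was the 1 such array in 40 groups checked, and chance alone gives about 1 in 20.

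The diet effect differed between the genotypes, by the interaction test, for Trem2 (2.55 more in the knockout on the log2 scale, higher in 4 of 4 knockout high-fat arrays than in any other array), Slc37a2 (1.98) and Gpnmb (1.71). None of the 3 passed once the 5 arrays with muscle transcripts were left out.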

How the results depend on the processing

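Of 1899 comparisons of an alternative setting with the reported value, over 81 member results, 1799 kept direction and side of the threshold, 57 lost a call, 23 gained one and 20 changed sign. Many settings could not change the direction. Leaving out an array outside the 2 groups compared, or changing the filter, prior or replicate block, keeps the estimate as it was. The total is therefore not a measure of robustness. Without the 5 arrays with muscle transcripts the members called fell from 3 to 1 for the knockout on low fat, from 3 to 0 for the interaction (2 at an unadjusted p under 0.05, limma) and from 2 to 1 for the knockout on low fat relative to the index; with diet in the wild type 6 of 7 members stayed above the index, Cd9 being lost (0.67, adjusted p = 0.179); the arrays left numbered 11, and fewer arrays widen every interval. Leaving out 1 array at a time gave 2 to 4, 1 to 3 and 1 to 3 for these, 8 to 9 for either diet comparison and 7 to 8 for the knockout on high fat. The sign changes all concerned differences that were not called. Cd9 on low fat was -0.090 without muscle-bearing arrays and -0.20 to 0.63 leaving out 1 array; on high fat it was 0.10 with array weights and -0.39 to 0.32; its interaction ran from -0.69 to 0.20. Relative to the index on low fat, Cd9 was 0.063 with the 3-gene index and -0.52 to 0.27 leaving out 1 array, Gpnmb -0.13 to 0.16, Slc37a2 -0.014 to 0.15, and Lgals3 0.048 without muscle-bearing arrays; on high fat Lgals3 was 0.062 with the 3-gene index. The cause of these changes was not tested.

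Whether the replicate numbers pair the arrays is not stated. With a replicate block, 9, 9, 2, 7 and 2 members were called in the 2 diet comparisons, the 2 genotype comparisons and the interaction; Ctsk on low fat (0.73, adjusted p = 0.0509) and the Gpnmb interaction (1.71, adjusted p = 0.0502) were lost.

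Itgax, Cd5l and Trem2 lie near the bottom of the signal range in the wild type on low fat, where fold changes are least certain. Averaging a gene's probe sets gave an interaction of 1.33 for Trem2 and 2.61 for Gpnmb.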
